A study of Mus musculus with 12 samples.

Results

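The genes described here are the mouse ubiquitin-conjugating enzymes, whose symbols begin with Ube2, and the ubiquitin-specific proteases, whose symbols begin with Usp and a number. They were chosen by symbol alone among the 12393 genes to which the annotation of the array gave a probe set with a single symbol. The choice returned 66 genes, 27 of them Ube2 and 39 of them Usp, which were measured by 118 of 20380 probe sets. Each gene was read on its brightest probe set, the one with the highest mean log2(signal + 16) over the 12 arrays. A filter on low signal, described with the processing, left 57 of the 66 in the tests, 26 Ube2 and 31 Usp. The 9 genes below it were Ube2d2b, Usp9y, Usp17la, Usp22, Usp26, Usp27x, Usp29, Usp42 and Usp43, and they are given as levels only.

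Messenger RNA was measured in hearts of 12 C57Bl/6 mice, an inbred strain, on 1 single-colour Affymetrix array per mouse, with 3 mice in each of 4 groups. Wake MI hearts came from mice whose left anterior descending coronary artery was ligated between ZT13 and ZT15, where ZT, zeitgeber time, is in hours and by convention starts at lights on, and which were killed 8 hours later at ZT23. Wake sham hearts came from mice with sham surgery at the same hours. Sleep MI and sleep sham hearts had the same surgeries between ZT1 and ZT3 and were taken 8 hours later at ZT11. The labels name no genetic change in any group and give no age. By their labels the MI samples were infarcted tissue; which region of a sham heart was taken has not been stated in the sources used here. Time of surgery and time of collection moved together and cannot be told apart.

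Ubiquitin is a small protein that is attached to other proteins in a relay. An E1 enzyme activates it, an E2 enzyme (most of the Ube2 proteins) carries it, and an E3 ligase selects the target. Depending on how the ubiquitins are joined to each other, a chain can send its target to the proteasome or serve as a scaffold for signalling. The Usp proteins are the largest family of deubiquitinases, cysteine proteases that remove ubiquitin or edit its chains. In heart muscle this system turns over sarcomere proteins, damaged proteins and signalling proteins. These are background facts and not results of these arrays, which measured messenger RNA and neither protein nor ubiquitin.

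The sequences upstream of 4 members named in the results below are shown. Whether these sequences bear on the changes in signal was not tested. Ube2a and Ube2b are the closely related pair that were both lower in wake MI hearts, Usp16 was higher after MI over both times, and Usp2 was the member nearest to a call between the times of day. Each run is the 250 bases before an annotated start, read 5′ to 3′ on the gene's strand, in lower case with each E-box (CACGTG, a motif bound by CLOCK and BMAL1 among other factors, its own reverse complement) in capitals. They are from RefSeq on build GRCm38.p6 and lie at chrX:36874045-36874294 (+) for Ube2a, at chr11:52000787-52001036 (-) for 1 of the 2 annotated Ube2b starts, at chr16:87454735-87454984 (+) for Usp16 and at chr9:44084670-44084919 (+) for Usp2.
Ube2a: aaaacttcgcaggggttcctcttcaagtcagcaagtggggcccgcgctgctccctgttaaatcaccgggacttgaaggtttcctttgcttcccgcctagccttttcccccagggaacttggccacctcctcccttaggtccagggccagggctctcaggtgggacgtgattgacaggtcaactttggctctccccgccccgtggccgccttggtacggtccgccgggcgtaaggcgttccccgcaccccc
Ube2b: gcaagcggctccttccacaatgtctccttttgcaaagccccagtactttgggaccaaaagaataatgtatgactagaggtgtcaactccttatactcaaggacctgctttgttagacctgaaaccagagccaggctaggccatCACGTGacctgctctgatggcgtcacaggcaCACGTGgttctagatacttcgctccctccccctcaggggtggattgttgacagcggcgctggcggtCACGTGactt
Usp16: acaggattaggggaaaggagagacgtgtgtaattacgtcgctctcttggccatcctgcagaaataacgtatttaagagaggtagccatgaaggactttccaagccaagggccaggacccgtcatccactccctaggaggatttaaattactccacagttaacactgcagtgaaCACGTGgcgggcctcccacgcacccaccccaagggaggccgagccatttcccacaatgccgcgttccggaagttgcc
Usp2: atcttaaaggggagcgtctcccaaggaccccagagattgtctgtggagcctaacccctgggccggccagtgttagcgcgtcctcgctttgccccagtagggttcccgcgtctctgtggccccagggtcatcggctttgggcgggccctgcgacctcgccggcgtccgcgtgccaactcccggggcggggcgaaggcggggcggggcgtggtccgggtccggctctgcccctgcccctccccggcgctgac
The Ube2b run was shown because it holds E-boxes, and the window of the other annotated Ube2b start, at chr11:52000492-52000741, holds 0. The run shown holds 3, at bases -107 to -102, -76 to -71 and -10 to -5 counted back from the start. The Usp16 run holds 1, at bases -77 to -72, and the Ube2a and Usp2 runs hold none of these letters. The Usp2 and Ube2b starts used lie inside their annotated genes, which span chr9:44067021-44095627 and chr11:51985138-52004145. The sequence before the outer 5′ end of these genes was not searched.

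Such windows were found for 49 of the 66 members (57 windows, since some genes have several starts). The members' windows were rich in G and C, with a median of 65.6% against 52.4% over all 32851 windows, and held a median of 23 CpG pairs against 6. An E-box lay in the windows of 3 of the 49 members (Ube2b, Usp4 and Usp16), or 6.12%, against 6.86% of all 27025 genes with windows. The AP-1 motif TGACTCA was found in 2 members (4.08% against 5.16%), the ATF/CRE motif TGACGTCA in 1 (2.04% against 1.77%), and the TATA letters TATAAA in 3 (6.12% against 14.3%). The D-box, read as TTATGTAA, and the heat shock element, read as GAANNTTC, were found in 0 members, against 0.977% and 7.73% of all genes. Both strands were searched, no motif here contains another, and a match or its absence describes only this window.

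Over both times of day together, 5 members were higher and 5 lower in the 6 MI hearts than in the 6 sham hearts, in a limma fit with p-values adjusted by Benjamini-Hochberg over all 8101 genes tested and a call at an adjusted p below 0.05. Of all genes tested, 8.49% were called higher and 13.6% lower in that comparison. The 10 calls were 17.5% of the 57 members, against 22.1% of all genes, so the share of members called was near or below that of the array. The genes that rose were Usp16, Ube2g2, Usp36, Usp39 and Usp7. The genes that fell were Usp21, Ube2w, Ube2v2, Ube2e3 and Ube2a. The median change of the members was -0.03, against -0.06 for all genes, and the members' changes lay between -0.41 and 0.36. Centring each array on its median moved the split to 6 higher and 3 lower, and averaging each gene's probe sets moved it to 2 higher and 6 lower, with 5 of these 8 among the 10. Without sleep MI replicate 2 it was 2 higher and 7 lower, and leaving out 1 array gave 4 to 9 calls, fewest without wake sham replicate 3. Of all genes, 16.2% to 22.2% were called with 1 array left out. In such bulk samples, fewer cells of a type and less RNA per cell cannot be told apart. Changes here are differences of mean log2(signal + 16), MI minus sham unless said otherwise, given with their standard error (SE), and signals are the deposited linear MAS5 values.

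In wake hearts, 2 members rose and 6 fell after MI, against 7.79% of all genes called higher and 10.7% called lower. Usp7 and Usp36 rose, and Ube2b, Usp21, Usp8, Ube2a, Ube2v2 and Usp47 fell. The 8 calls were 14.0% of the members tested, against 18.5% of all genes, and the median change was -0.04 for members and -0.06 for all genes. Centring each array on its median gave 4 higher and 2 lower, and leaving out 1 array gave 3 to 7 calls, fewest without wake sham replicate 1. Of all genes, 10.4% to 18.7% were called in wake hearts with 1 array left out. The wake MI and wake sham arrays did not overlap for 19 members (8 higher, 11 lower), or 33.3%, against 35.1% of all genes. The median size of change, regardless of sign, was 0.184 for members and 0.213 for all genes. In sleep hearts, 0 members were called after MI, against 1.68% of all genes called higher and 0.975% called lower. There 5 of the 57 members had an unadjusted p below 0.05, against 1388 of all 8101 genes, and the lowest adjusted p was 0.125. The sleep arrays did not overlap for 11 members (5 higher, 6 lower), or 19.3%, against 23.5% of all genes.

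**Figure D1:**
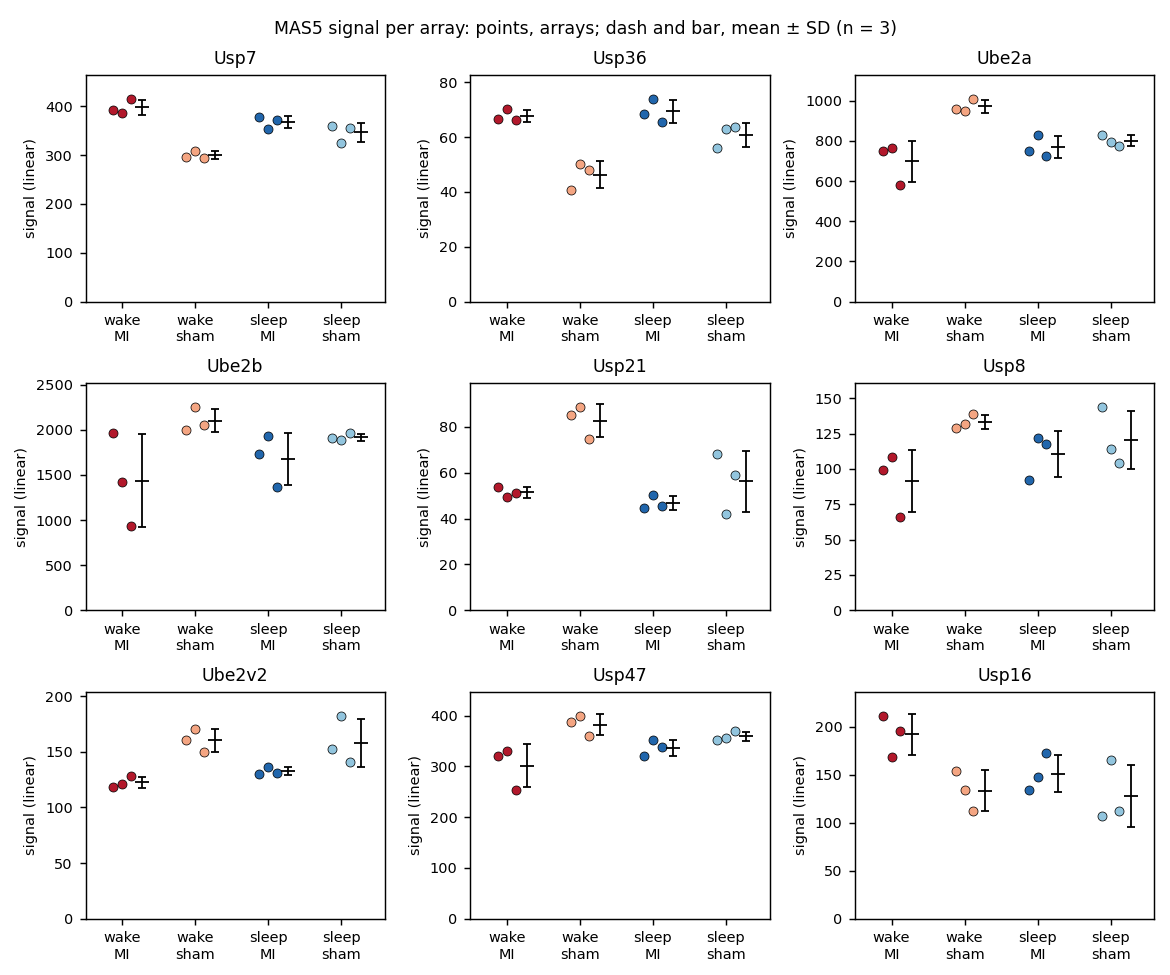
Deposited MAS5 signal (linear, vertical axis from 0) of 9 members in each of the 12 arrays, with wake MI, wake sham, sleep MI and sleep sham from left to right; points are arrays, dashes and bars the mean ± SD of 3. Usp7 and Usp36 are higher and Ube2a, Ube2b, Usp21, Usp8, Ube2v2 and Usp47 lower on the 3 wake MI arrays than on the 3 wake sham arrays. For Usp16 the wake groups do not overlap either, with all wake MI arrays above all wake sham arrays.

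Ube2a and Ube2b are the mammalian counterparts of yeast Rad6, E2 enzymes that place single ubiquitins on a histone in transcribed chromatin and act in tolerance of DNA damage. Ube2a had signals of 750.3, 763 and 579 in wake MI hearts, against 961, 948 and 1009 in wake sham hearts, and of 750.5, 830.2 and 726 in sleep MI hearts, against 829, 796 and 776 in sleep sham hearts. The 3 wake sham arrays were the highest of the 12, and the sleep groups overlapped. The change was -0.48 ± 0.11 in wake hearts (adjusted p = 0.00915), -0.06 ± 0.11 in sleep hearts (adjusted p = 0.838) and -0.27 ± 0.08 over both times (adjusted p = 0.0238). Ube2b had signals of 1960.4, 1421 and 933 in wake MI hearts, against 2003, 2250.1 and 2057 in wake sham hearts, and of 1728, 1931 and 1367 in sleep MI hearts, against 1908, 1888 and 1965 in sleep sham hearts. The wake groups did not overlap but came close, and the wake MI arrays spread more than any other group, with replicate 3 lowest. The change was -0.61 ± 0.20 in wake hearts (adjusted p = 0.0479), -0.21 ± 0.20 in sleep hearts (adjusted p = 0.639) and -0.41 ± 0.14 over both times (adjusted p = 0.0514).

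The calls of this pair differed in how far they rested on single arrays. Ube2a stayed called in wake hearts with each of the 12 arrays left out in turn, at changes between -0.55 and -0.36. Ube2b was called in wake hearts only when wake MI replicate 1 or sleep MI replicate 3 was the array left out, and without wake MI replicate 3 its change was -0.33 (adjusted p = 0.158). The second Ube2b probe set had signals of 1103, 1086 and 889.5 in wake MI hearts, against 1313.5, 1450.0 and 1303 in wake sham hearts. On that probe set the wake change was -0.40 (adjusted p = 0.022 in a fit over all probe sets), with wake groups that did not overlap. The second Ube2a probe set gave -0.44 in wake hearts (adjusted p = 0.0193), so the wake MI level was lower on both probe sets of both genes, although the brighter Ube2b set was not called in that fit (adjusted p = 0.0575). Over both times the Ube2a call was lost without wake sham replicate 3, sleep MI replicate 1, sleep MI replicate 3 or sleep sham replicate 1, at adjusted p between 0.0536 and 0.0563.

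The D and E families are E2 enzymes that work with many E3 ligases and place the first ubiquitin on a target, and Ube2w, counted with them here, attaches ubiquitin to the amino end of proteins. Of 8 members in this group 7 were tested. Over both times 2 fell (Ube2e3 and Ube2w), against 13.6% of all genes called lower, with 0 called in wake and 0 in sleep hearts. For this and the later role groups, the background is the share of all genes called, given above for each comparison. Ube2e3 had signals of 721, 630.1 and 783 in wake MI hearts, against 838, 896 and 853 in wake sham hearts, and of 746, 789 and 569.8 in sleep MI hearts, against 857, 853 and 820.0 in sleep sham hearts. All 6 MI arrays lay below all 6 sham arrays. The change was -0.27 ± 0.09 over both times (adjusted p = 0.0336), close to equal in wake (-0.28) and sleep (-0.27) hearts. Ube2w had 90.4, 71.2 and 65.5 in wake MI hearts, against 109.7, 83.2 and 100.3 in wake sham hearts, and 76.3, 72.3 and 91.8 in sleep MI hearts, against 101, 107 and 94.9 in sleep sham hearts. Its wake groups overlapped and its sleep groups did not, and the change over both times was -0.30 ± 0.10 (adjusted p = 0.038).

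Both of these calls were near the threshold. The Ube2e3 call was kept without wake MI replicate 1, wake MI replicate 3, sleep MI replicate 1 or sleep MI replicate 2 and lost without any 1 of the other 8 arrays, at adjusted p between 0.0525 and 0.0816. The Ube2w call was kept without sleep MI replicate 3, wake sham replicate 2 or wake MI replicate 1 and lost without any 1 of the other 9, at adjusted p between 0.0529 and 0.0928. Ube2d3, a widely used E2 of this group, had 2329.8, 2348 and 2290.4 in wake MI hearts, against 2130.3, 2192 and 2299 in wake sham hearts, and 2482, 2352 and 2495 in sleep MI hearts, against 2119, 2140.4 and 1871 in sleep sham hearts. These are signals of the brightest of 7 probe sets, and on it the sleep groups did not overlap. Its sleep change of 0.26 ± 0.08 had the lowest adjusted p of all members in that comparison, 0.125. The second brightest set was also higher in sleep MI hearts without overlap (1589 to 1698 against 1285 to 1546). A dimmer set was level (mean 248 against 251). In wake hearts the sets also differed, with MI arrays at 970 to 1446 against 1511 to 1543 on the third brightest and 989 to 1265 against 872 to 950 on the next. Ube2d1 had a sleep change of -0.46 ± 0.20 (adjusted p = 0.274) with groups that overlapped, since sleep MI replicate 2 stood at 224 and the other sleep MI arrays at 149 and 103. The brightest of 4 Ube2d2a probe sets varied widely within groups, between 573 and 1420.0 over the 12 arrays. Its changes of 0.27 in wake and 0.10 in sleep hearts were smaller than their standard error of 0.32. The wide spread was that of this set, since the next brightest lay between 345 and 440. The others lay between 251 and 345 and between 83.8 and 144. Ube2e1 changed by -0.04 in wake and -0.13 in sleep hearts (adjusted p = 0.85 and 0.62).

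Ube2n builds the chains used in inflammatory and DNA damage signalling, and does so only with a partner that resembles an E2 but lacks its active cysteine, either Ube2v1 or Ube2v2. Of the 3 genes, Ube2v2 fell and the other 2 were not called. Ube2v2 had 119, 121 and 128 in wake MI hearts, against 160.4, 170.4 and 150.0 in wake sham hearts, and 129.9, 137 and 131 in sleep MI hearts, against 152, 182 and 140.5 in sleep sham hearts. Every MI array lay below every sham array at both times. The change was -0.35 ± 0.11 in wake hearts (adjusted p = 0.0403), -0.23 ± 0.11 in sleep hearts (adjusted p = 0.312) and -0.29 ± 0.08 over both times (adjusted p = 0.0178). Over both times the call held with each array left out, whereas in wake hearts it held only without sleep MI replicate 3, sleep sham replicate 2 or sleep sham replicate 3, with adjusted p between 0.0514 and 0.112 for the other 9. A second Ube2v2 probe set was dim, with signals between 3.25 and 23.2, and was not called. Ube2n changed by -0.14 ± 0.12 in wake hearts (adjusted p = 0.439) and 0.01 ± 0.12 in sleep hearts (adjusted p = 0.979), and Ube2v1 changed by 0.11 ± 0.10 in wake hearts (adjusted p = 0.496), with an adjusted p of 0.991 in sleep hearts.

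Among 6 E2 enzymes that make degradation chains or serve the disposal of misfolded proteins of the endoplasmic reticulum, Ube2g2 alone was called, and over both times only. Ube2g2, which works with ligases of the endoplasmic reticulum membrane, had 349, 306 and 321 in wake MI hearts, against 313, 256 and 205 in wake sham hearts, and 285, 285 and 315 in sleep MI hearts, against 253, 271 and 201 in sleep sham hearts. Its wake groups overlapped at 1 array and its sleep groups did not overlap. The change over both times was 0.31 ± 0.10 (adjusted p = 0.0438), and it was kept only without wake sham replicate 1 or sleep sham replicate 2, with adjusted p between 0.0569 and 0.106 for the other 10 arrays. Its second probe set moved the other way, by -0.26 over both times (adjusted p = 0.28), so the rise was seen on 1 of 2 probe sets. Ube2j1, an E2 anchored in the same membrane, had 123, 124 and 114 in wake MI hearts, against 93.5, 107 and 89.2 in wake sham hearts, a change of 0.28 ± 0.11 with groups that did not overlap (adjusted p = 0.0994). Ube2g1 changed by -0.08 in wake and 0.08 in sleep hearts, and Ube2k, which extends degradation chains, by -0.07 and -0.02, all with an adjusted p of 0.596 or more.

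The remaining E2 enzymes were not called in any comparison on their brightest probe set. Ube2f, which carries the ubiquitin-like protein NEDD8 to a cullin, changed by -0.04 ± 0.11 in wake and 0.15 ± 0.11 in sleep hearts (adjusted p = 0.855 and 0.526). Ube2l6, which carries ISG15, a ubiquitin-like protein induced by interferon, was dim, between 1.48 and 28.1 over the 12 arrays, and changed by -0.47 ± 0.25 in wake hearts (adjusted p = 0.207). Ube2c and Ube2s serve the ligase that drives exit from mitosis. Ube2c was dim as well, between 4.11 and 37.5, with changes of -0.43 ± 0.32 in wake and 0.34 ± 0.32 in sleep hearts (adjusted p = 0.371 and 0.627). Ube2s had 632, 574 and 598 in wake MI hearts, against 720.0, 659 and 645 in wake sham hearts, and 578, 719 and 713 in sleep MI hearts, against 505, 548 and 605 in sleep sham hearts. Its MI arrays were lower in wake hearts without overlap and mostly higher in sleep hearts, and the difference of the 2 effects was -0.43 ± 0.15 (adjusted p = 0.342). Ube2h, Ube2o and Ube2z, 3 E2 enzymes of different partners, changed by 0.23, 0.11 and 0.02 in wake hearts (adjusted p = 0.248, 0.64 and 0.909).

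Of the proteases that act on chromatin or in DNA repair, 9 of 11 were tested, and 2 rose (Usp7 and Usp16) and 1 fell (Usp21) over both times. Of all genes, 8.49% were called higher and 13.6% lower there. Usp7, which stabilises the p53 ligase Mdm2 among other proteins, had signals of 393, 386 and 415 in wake MI hearts, against 296, 309 and 294 in wake sham hearts, and of 378, 354 and 373 in sleep MI hearts, against 360.3, 325 and 356 in sleep sham hearts. The wake sham arrays were the 3 lowest of the 12 and the wake MI arrays the 3 highest, while the sleep groups overlapped. The change was 0.39 ± 0.09 in wake hearts (adjusted p = 0.00941), 0.08 ± 0.09 in sleep hearts (adjusted p = 0.687) and 0.24 ± 0.06 over both times (adjusted p = 0.017). The wake call held with each array left out, at changes between 0.36 and 0.41, but averaging the gene's probe sets ended it (adjusted p = 0.0744). The second probe set was dim, between 0.928 and 26.1, and both carry the suffix that Affymetrix uses for sets that may match several transcripts. Usp16, which removes ubiquitin from a histone, had 211, 169 and 196 in wake MI hearts, against 154, 134 and 112 in wake sham hearts, and 134, 147 and 173 in sleep MI hearts, against 107, 165 and 112 in sleep sham hearts. The wake groups did not overlap and the sleep groups did.

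The Usp16 change was 0.48 ± 0.16 in wake hearts, just outside the threshold (adjusted p = 0.0522), and 0.36 ± 0.11 over both times (adjusted p = 0.0382). The second of these held only when the array left out was sleep sham replicate 2, sleep MI replicate 1, wake sham replicate 1 or wake MI replicate 2, with adjusted p between 0.0595 and 0.0938 for the other 8 arrays. Usp21, another histone deubiquitinase that also acts in inflammatory signalling, had 53.9, 49.3 and 51.1 in wake MI hearts, against 85.1, 88.5 and 74.8 in wake sham hearts, and 44.8, 50.4 and 45.4 in sleep MI hearts, against 68.1, 41.9 and 59 in sleep sham hearts. The 3 wake sham arrays were the highest of the 12, and the sleep groups overlapped because sleep sham replicate 2 was the lowest array of all. The change was -0.55 ± 0.14 in wake hearts (adjusted p = 0.0154), -0.19 ± 0.14 in sleep hearts (adjusted p = 0.537) and -0.37 ± 0.10 over both times (adjusted p = 0.0167). The wake call was lost without wake sham replicate 1 (adjusted p = 0.0534) and held without each of the other 11 arrays, and the call over both times held without each of the 12. The other 6 tested proteases of this group were not called in wake or sleep hearts.

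Of 4 proteases of endosomes, proteasomes and free ubiquitin chains, Usp8 fell in wake hearts and the other 3 were not called. Usp8, which sorts receptors at endosomes, had 99.3, 108 and 66.3 in wake MI hearts, against 129, 132 and 139 in wake sham hearts, and 91.9, 122 and 118 in sleep MI hearts, against 144, 114 and 104 in sleep sham hearts. The wake groups did not overlap, wake MI replicate 3 was the lowest array of all, and the sleep groups overlapped. The change was -0.50 ± 0.16 in wake hearts (adjusted p = 0.0463) and -0.11 ± 0.16 in sleep hearts (adjusted p = 0.787). The wake call held only without wake MI replicate 2, sleep MI replicate 1, sleep sham replicate 1 or sleep sham replicate 3, and without wake MI replicate 3 the change was -0.32 (adjusted p = 0.16). Usp14, a protease bound to the proteasome, changed by -0.32 ± 0.15 in wake hearts (adjusted p = 0.138). Usp5, which disassembles unanchored chains, changed by -0.12 ± 0.23 in wake and -0.38 ± 0.23 in sleep hearts (adjusted p = 0.756 and 0.434), with sleep sham replicate 3 at 250.1 and the other 11 arrays between 94.8 and 186.

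The 5 proteases of inflammatory and interferon signalling were not called in any of the 6 comparisons. Usp18, which removes ISG15 and is itself induced by interferon, had 27.3, 77 and 39.5 in wake MI hearts, against 45.5, 52.5 and 48.4 in wake sham hearts, and 42.3, 35.3 and 89.9 in sleep MI hearts, against 60.8, 101 and 46.2 in sleep sham hearts. Single arrays stood high in 3 of the 4 groups, and the changes of -0.09 ± 0.30 in wake and -0.27 ± 0.30 in sleep hearts were smaller than their errors. Usp10 had 207, 182 and 167 in wake MI hearts, against 162, 155 and 144 in wake sham hearts. These did not overlap, and the change was 0.25 ± 0.11 (adjusted p = 0.14), against 0.00 ± 0.11 in sleep hearts. Usp4, Usp15 and Usp25 changed by 0.09, -0.17 and 0.01 in wake hearts (adjusted p = 0.605, 0.483 and 0.973) and by 0.01, -0.04 and -0.03 in sleep hearts.

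Of the other Usp genes, 12 of 18 were tested. Usp36, a protease of the nucleolus, had 66.6, 70.3 and 66.2 in wake MI hearts, against 40.7, 50.2 and 47.9 in wake sham hearts, and 68.6, 73.9 and 65.6 in sleep MI hearts, against 55.9, 62.8 and 63.7 in sleep sham hearts. Every MI array lay above every sham array, and the 3 wake sham arrays were the lowest. The change was 0.43 ± 0.11 in wake hearts (adjusted p = 0.0175), 0.15 ± 0.11 in sleep hearts (adjusted p = 0.53) and 0.29 ± 0.08 over both times (adjusted p = 0.0185). The wake call was lost without wake MI replicate 2 (adjusted p = 0.0569) or wake sham replicate 1 (adjusted p = 0.0767), and averaging with the gene's dim second probe set ended both calls. Usp47, a partner of the ligase subunit beta-TrCP, had 321, 331 and 253 in wake MI hearts, against 388, 399 and 359.8 in wake sham hearts, and 320.3, 352 and 337 in sleep MI hearts, against 352, 356 and 369 in sleep sham hearts. The wake groups did not overlap and the sleep groups overlapped by a small margin at 352. The wake change was -0.34 ± 0.11 (adjusted p = 0.0447), and -0.22 without wake MI replicate 3 (adjusted p = 0.137).

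The Usp47 call in wake hearts was kept only without wake MI replicate 1 or wake MI replicate 2, and its second probe set changed by 0.05 (adjusted p = 0.852). Usp39, a relative without protease activity that works in the spliceosome, had 151, 160.1 and 207 in wake MI hearts, against 147, 119 and 118 in wake sham hearts, and 162, 145 and 153 in sleep MI hearts, against 146, 129 and 122 in sleep sham hearts. The wake groups did not overlap, and the sleep groups overlapped by 1 array. The change was 0.29 ± 0.09 over both times (adjusted p = 0.038) and 0.39 ± 0.13 in wake hearts (adjusted p = 0.0537). The call over both times held only without sleep sham replicate 1, wake sham replicate 1 or wake MI replicate 1 or 2, with adjusted p between 0.0512 and 0.0876 for the other 8 arrays. The brightest Usp39 probe set carries an Affymetrix suffix for sets with probes that may match other sequences. A second Usp39 probe set gave 0.31 over both times (adjusted p = 0.0422). Usp9x, Usp12, Usp38 and Usp53 changed by 0.03, 0.11, 0.29 and 0.18 in wake hearts and by -0.04, 0.08, 0.13 and 0.03 in sleep hearts, with adjusted p of 0.204 or more.

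**Figure D2:**
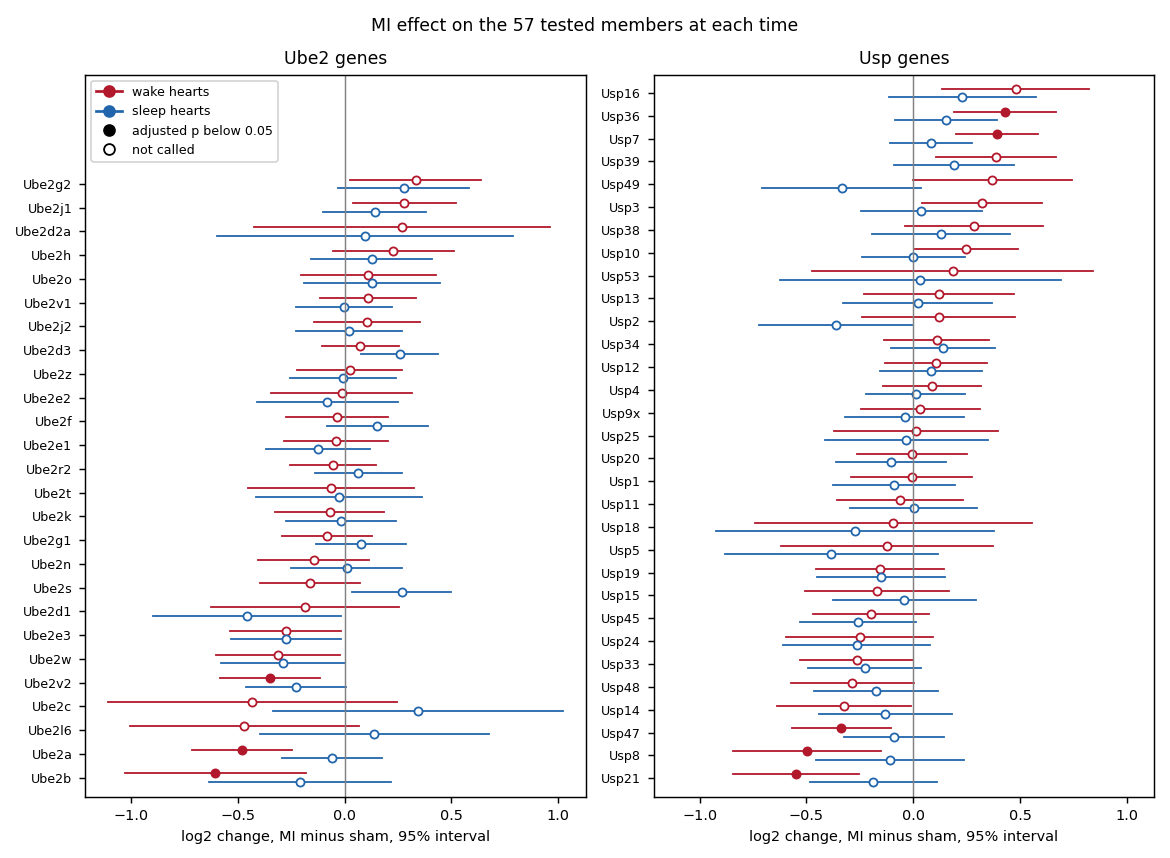
Change after MI (difference of mean log2(signal + 16), MI minus sham, horizontal axis) of the 57 tested members with its 95% interval, Ube2 genes in the left panel and Usp genes in the right, wake hearts in red above sleep hearts in blue; filled points are called at an adjusted p below 0.05. The 8 filled points are all in wake hearts, 2 above 0 (Usp7 and Usp36) and 6 below it, and most intervals of the sleep changes include 0.

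The changes after MI in wake and in sleep hearts pointed the same way for 43 of 57 members, or 75.4%, against 69.3% of all genes tested. They were larger in wake hearts for 39 members, or 68.4%, against 64.2% of all genes. Across members the 2 changes had a Pearson r of 0.42 and a Spearman rho of 0.51, against 0.64 and 0.51 across all genes, as a description over genes that share the same arrays. Each of the 8 members called in wake hearts had the same sign and a smaller change in sleep hearts, a comparison that starts from the wake calls and is no test of a difference. That difference, tested as the wake change minus the sleep change, was called for 0 members, with 0% of all genes called higher and 0% lower. Its lowest adjusted p among members was 0.339, and 4 of the 57 members had an unadjusted p below 0.05, against 852 of all 8101 genes. Among these 4 members were Ube2a, with -0.42 ± 0.15 (adjusted p = 0.363), and Usp7, with 0.31 ± 0.13 (adjusted p = 0.421). The 95% intervals of these differences, not adjusted for the number of genes, were -0.75 to -0.09 for Ube2a and 0.04 to 0.58 for Usp7.

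**Figure D3:**
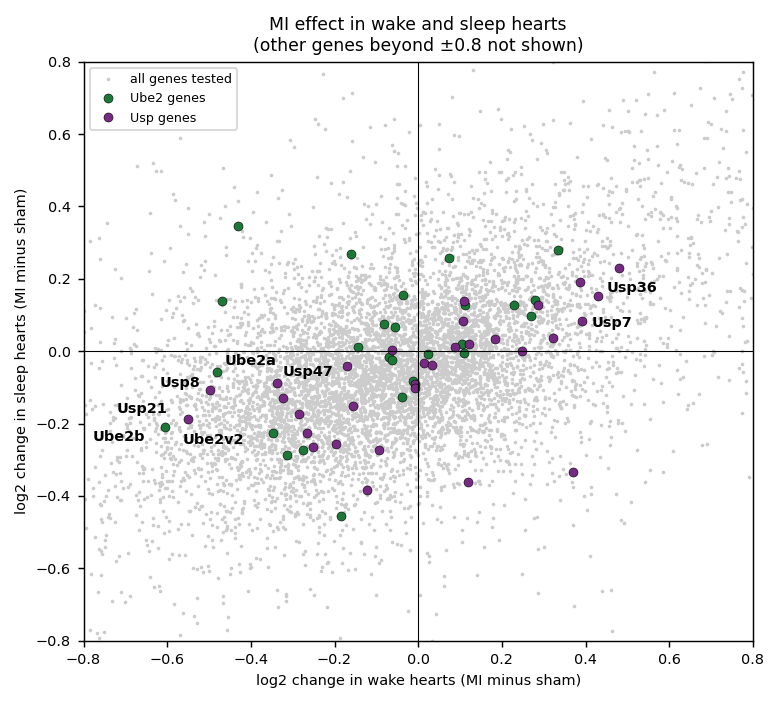
Change after MI in wake hearts (horizontal) against the change in sleep hearts (vertical), both as differences of mean log2(signal + 16), MI minus sham, for the 57 tested members (coloured) and all 8101 genes (grey, drawn only within 0.8 of 0 on each axis); the 8 members called in wake hearts carry their names. The named members have wake changes between -0.61 and 0.43 and smaller sleep changes of the same sign, which reach -0.23 for Ube2v2.

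Between wake and sleep hearts, ZT23 and ZT11 without or after MI, 0 members were called. Among MI hearts, 0.037% of all genes were called higher and 0.037% lower in wake hearts. An unadjusted p below 0.05 was found for 2 of the 57 members, against 540 of all 8101 genes. The wake MI and sleep MI arrays did not overlap for 5 members (3 higher, 2 lower), or 8.77%, against 10.9% of all genes. Usp49, named here after its values were seen, had the lowest adjusted p (0.563), with 29.7, 35.6 and 45.2 in wake MI hearts, against 27.7, 11.4 and 18.9 in sleep MI hearts. The groups did not overlap, but signals this low carry little information on order. Among sham hearts, 0.42% of all genes were called higher and 1.1% lower in wake hearts. An unadjusted p below 0.05 was found for 9 of the 57 members, against 1089 of all 8101 genes. The wake sham and sleep sham arrays did not overlap for 11 members (6 higher, 5 lower), or 19.3%, against 20.1% of all genes.

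Usp2 came nearest to a call between the times. It is a protease whose messenger RNA cycles with the circadian clock in many tissues and which acts on the clock protein Per1. Its brightest probe set had signals of 1038, 718 and 612 in wake MI hearts, against 876, 922 and 811 in sleep MI hearts, and of 783, 795 and 569.9 in wake sham hearts, against 1115, 1068 and 1183 in sleep sham hearts. The sham groups were apart, lower at ZT23, and the MI groups overlapped. The wake minus sleep difference was -0.65 ± 0.17 in sham hearts (adjusted p = 0.0763) and -0.17 ± 0.17 in MI hearts (adjusted p = 0.898). A second probe set had 621, 515 and 465 in wake MI hearts, against 513, 579 and 513 in sleep MI hearts, and 491, 451 and 432 in wake sham hearts, against 768, 767 and 807 in sleep sham hearts. On that set, in the fit over all probe sets of tested genes, Usp2 was lower in wake sham than in sleep sham hearts (-0.75, adjusted p = 0.00579) and lower in sleep MI than in sleep sham hearts (-0.53, adjusted p = 0.0254). The change after MI in wake hearts was 0.21 on that set (adjusted p = 0.236), and the difference of the 2 MI effects was 0.74 (adjusted p = 0.169), so it was not shown to differ between the times. On the brightest set the sleep change after MI was -0.36 ± 0.17 (adjusted p = 0.287), with groups that did not overlap.

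**Figure D4:**
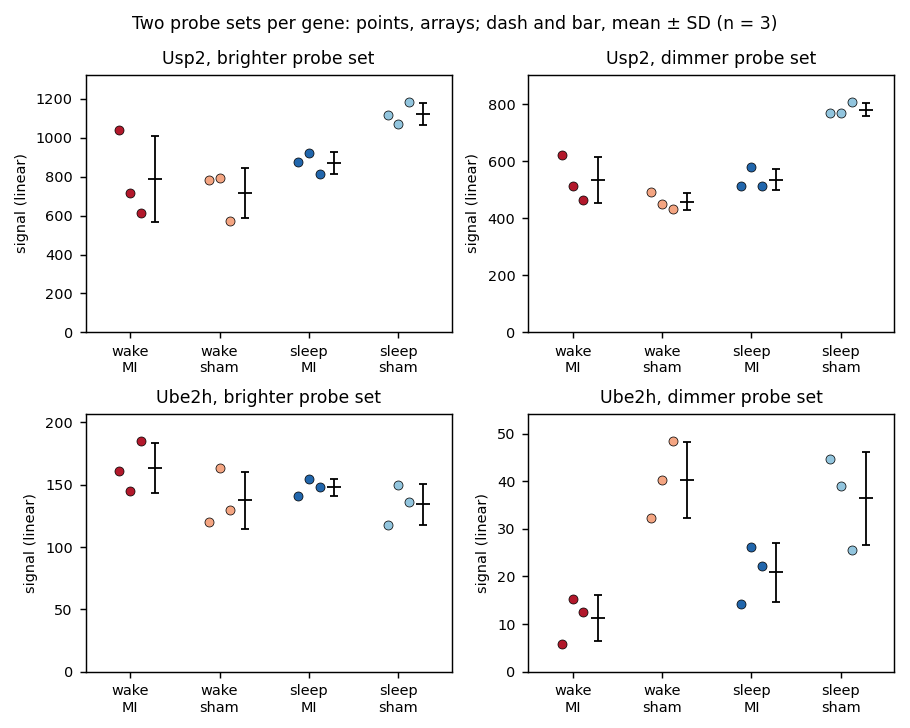
Deposited MAS5 signal (linear, vertical axis from 0) of both probe sets of Usp2 (top) and Ube2h (bottom) in wake MI, wake sham, sleep MI and sleep sham hearts, with points for arrays and dashes with bars for the mean ± SD of 3. Both Usp2 sets are highest in sleep sham hearts, whereas the brighter Ube2h set is nearly level. The dimmer Ube2h set lies below 27 on all 6 MI arrays and also on sleep sham replicate 3 (25.5).

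The wake sham arrays stood apart for several of the members above, a pattern noticed after the values were seen. For 6 of 57 members, or 10.5%, all 3 wake sham arrays lay outside the range of the other 9 arrays, against 8.48% of all genes. They were higher for Ube2a, Ube2b and Usp21 and lower for Ube2j1, Usp36 and Usp7. On the wake sham arrays the beta-actin control probe sets also gave the lowest 3′/5′ ratio, a measure of how far the RNA or its copying was truncated. This ratio was 2.17 to 3.31 in wake MI hearts, against 1.77 to 1.81 in wake sham hearts, and 2.09 to 2.92 in sleep MI hearts, against 1.94 to 2.49 in sleep sham hearts. Wake MI replicate 3 had the highest ratio and was also the lowest wake MI array for 4 of the 6 members that fell in wake hearts, Ube2a, Ube2b, Usp8 and Usp47. It was the highest wake MI array for Ube2v2 and the middle one for Usp21. Among the members that rose, it was the highest for Usp7 and the lowest for Usp36. This order was not compared with that of other genes, and a link to the ratio was not tested. With the ratio as a covariate 0 members were called in wake hearts and 1 over both times, Usp24, which was not called in the same fit over 12 arrays without the covariate and is named here for that reason alone. Calls fell over the whole array with the covariate. Of all genes, 3.38% were called with it in wake hearts, against 18.5% without it, and 8.3% over both times, against 22.1%. The changes in wake hearts then were -0.28 for Ube2a, -0.08 for Ube2b, 0.32 for Usp7, 0.53 for Usp36 and -0.59 for Usp21, with adjusted p of 0.0781 or more. Ratio and surgery moved together in wake hearts, with no overlap of the groups, and cannot be told apart there.

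Markers of other cell types moved with the same comparisons. Summed signals of the 9 neutrophil markers on the array were 1344 to 3292 in wake MI hearts, against 273 to 789 in wake sham hearts, and 1761 to 3198 in sleep MI hearts, against 514 to 2056 in sleep sham hearts, and of the 8 tested 7 rose in wake hearts, 2 in sleep hearts and 7 over both times. Those of the 4 atrial muscle markers were 998 to 1436 in wake MI hearts, against 1715 to 14687 in wake sham hearts, and 1815 to 2949 in sleep MI hearts, against 1671 to 4720 in sleep sham hearts, and 3 of the 4 fell in wake hearts and 0 were called over both times. Those of the 6 fibroblast markers were 5045 to 6299 in wake MI hearts, against 6994 to 9984 in wake sham hearts, and 6944 to 8437 in sleep MI hearts, against 6883 to 9408 in sleep sham hearts, and 2 of the 6 fell in wake hearts and 3 over both times. The sums of the 10 heart muscle markers overlapped, 77481 to 93324 in wake MI hearts and 73002 to 81567 in wake sham hearts, and all 10 were tested, with 1 higher in wake hearts and 1 over both times. Of 8 macrophage markers 1 was lower and of 6 endothelial markers 1 was higher in wake hearts, with sums that overlapped. Over both times 0 macrophage markers were called, and 2 endothelial markers were higher and 1 lower. Of all genes tested, 7.79% were called higher and 10.7% lower in wake hearts, and 1.68% and 0.975% in sleep hearts. Over both times these shares were 8.49% and 13.6%. The part of these shifts in the members' changes was not tested.

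Other genes of the pathway came from a list of 83 chosen by function, of which 58 were tested. Over both times 4 rose and 6 fell, or 17.2%, against 22.1% of all genes. In wake hearts 4 rose and 6 fell, again 17.2%, against 18.5% of all genes. In sleep hearts 1 rose, or 1.72%, against 2.65% of all genes, and whether the list differed from the members was not tested. Birc3, an E3 ligase that NF-kB induces, had the largest change of the list, with signals of 303, 244 and 294 in wake MI hearts, against 88.3, 102 and 79.6 in wake sham hearts, and 249.5, 269.0 and 221 in sleep MI hearts, against 144, 153 and 93.1 in sleep sham hearts. It rose by 1.48 ± 0.16 in wake hearts (adjusted p = 8.53e-05) and 0.87 ± 0.16 in sleep hearts (adjusted p = 0.0116), without overlap at either time. The largest change among the members in wake hearts, -0.61 for Ube2b, was smaller.

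In wake hearts 2 of 5 tested E1 enzymes fell, Uba7, the E1 of ISG15 (-0.63, adjusted p = 0.0229), and Nae1, a subunit of the NEDD8 E1 (-0.42, adjusted p = 0.0179). So did 1 of 4 E2 enzymes whose symbols do not begin with Ube2. Of all genes, 10.7% were called lower in wake hearts, and sets this small say little against that share. Among E3 ligases Siah2 (0.68, adjusted p = 0.0174) and Huwe1 (0.35, adjusted p = 0.0282) rose in wake hearts, and Fbxw7, a cullin ligase subunit, fell (-0.62, adjusted p = 0.0264). Fbxw7 was also higher in wake sham than in sleep sham hearts (0.88, adjusted p = 0.0219), the only gene of the list called between the times. Among other deubiquitinases Zranb1 rose in wake hearts (0.55, adjusted p = 0.0088), and Josd2 (-0.82, adjusted p = 0.0029) and Brcc3 (-0.58, adjusted p = 0.0308) fell. Over both times Otulin, which cuts linear chains, rose (0.54, adjusted p = 0.0049), as did Birc3 (1.18), Siah2 (0.64) and Zranb1 (0.32). Josd2 (-0.55), Otub2 (-0.48), Brcc3 (-0.46), Aktip (-0.33) and Nedd4 (-0.24) fell, with the largest adjusted p of these 9 genes at 0.0263.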

How the data were processed

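Heart RNA of 12 mice was hybridised to 12 single-colour Affymetrix arrays with a biotin label, per the labels' protocols. Each deposited value is the linear intensity of a probe set, which the authors computed with MAS5 per the submitters' processing notes; version and settings were not stated in the sources used here. Array medians lay between 32.7 and 34.7 and trimmed means at 150.1, so no further scaling was applied. The log2(signal + 16) scale understates the change of dim genes.

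Of 22690 probe sets, 64 controls were left out. The array's annotation gave 1 symbol for 20380 of the rest, several for 691 (7 of these include a Usp gene and were not used) and none for 1555. Tested were genes with a mean log2(signal + 16) at or above the 40th percentile of probe sets, a signal of 16.8. Groups were compared in limma 3.58.1 (R 4.3.3) with 1 mean per group over 12 arrays, an intensity trend and two-sided moderated tests on 8 residual degrees of freedom (14.0 with the prior). Benjamini-Hochberg adjustment ran over 8101 genes within each of 6 comparisons, and calls were made below an adjusted p of 0.05. For 3 against 3 arrays the smallest p of an exact permutation test is 0.1, so none was run. The test was checked on simulated data. Scan dates and batches were not stated in the sources used here.

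The replicates are separate mice per the labels. The members, the role groups, the other gene lists and the tests were chosen with earlier results of these data known. Named with values were, in each comparison, up to 8 called members with the largest rise and up to 8 with the largest fall, a fixed panel whether called or not, and up to 5 higher and 5 lower called genes of the pathway list. For Ube2m, Ube2l3, Ube2d2, Usp28 and Usp30, on the panel, no single-symbol probe set was found. Sequences are from RefSeq tables on GRCm38.p6. As alternatives, the pseudocount was set to 1 or 64, the level filter dropped or raised to the 60th percentile, arrays were quantile normalized or centred on their medians, a gene's probe sets averaged, the trend dropped, the fit limited to the groups compared, blocked on replicate number or given the beta-actin 3′/5′ ratio, each array left out, and calls made below 0.01. Tables and figures were made with Python 3.11.15, numpy 2.4.6, pandas 2.3.3 and matplotlib 3.10.9.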

Additional observations from a re-analysis of the deposited data

How the results depend on the processing

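Over both times, where 10 members were called, the count was 6 with no level filter (12393 genes tested), 1 with the beta-actin covariate, 0 at an adjusted p below 0.01 and 4 to 9 with 1 array left out (6 or fewer without replicate 1 or 3 of either sleep group, or replicate 2 or 3 of wake sham). In wake hearts, where 8 were called, it was 4 with no level filter, 3 with the compared groups alone, 0 with the beta-actin covariate, 2 at an adjusted p below 0.01 and 3 to 7 with 1 array left out (5 or fewer without wake MI replicate 2 or 3, any wake sham replicate, sleep MI replicate 1 or 2, or sleep sham replicate 1). Calls over all genes fell in these settings too. Over both times they were 12.5% with no level filter, 8.3% with the covariate and 9.62% below 0.01, against 22.1% in the main setting. In wake hearts they were 10.2%, 3.38% and 6.96%, and 13.4% with the compared groups alone, against 18.5%. The 6 and 4 members called with no level filter, and the 3 with the compared groups alone, were also called in the main setting, whereas the 1 with the covariate over both times was not. Between wake and sleep sham hearts 0 members were called, and 1 (Usp2) with the mean of probe sets or without wake MI replicate 1 or 3, a range of 0 to 1 with 1 array left out. With 1 array left out, the remaining arrays of its group were assumed to vary like the other groups. Ube2h turned round with the mean of its probe sets, to -0.30 over both times (adjusted p = 0.0289) and -0.41 in wake hearts (adjusted p = 0.0383), because its dim probe set moved opposite to the bright one. Median centring moved the split in wake hearts to 4 members higher and 2 lower, against 2 and 6, and that of all genes to 695 higher and 675 lower, against 631 and 865, and moved the split over both times to 6 and 3, against 5 and 5. Quantile normalization gave 4 higher and 5 lower in wake hearts. The other alternatives kept the counts of called members within 1.5 times, and for sleep hearts, for MI hearts between the times and for the difference of the MI effects each alternative gave 0. No clear sign was seen that replicate numbers paired the mice, though 3 arrays per group cannot exclude it. Same-numbered arrays had correlations of -0.175 to 0.251 (median -0.009) in their deviations from group means. Those of differently numbered arrays were -0.196 to 0.283 (median -0.037), and 3 of 12 arrays correlated best with their own number. With the replicate number as a block, 9 members were called over both times (3 higher, 6 lower) and 6 in wake hearts (2 higher, 4 lower). For the 40 members named with values by rule, 5459 values under the alternatives kept direction and side of the threshold or an uncalled state, 158 lost a call, 25 gained one and 2 turned round. Of other members, Usp24 gained a call over both times with the covariate and without wake MI replicate 3, and Usp33 with the mean of probe sets, no trend and without sleep MI replicate 2; both are named for this alone. Signals below about 16, the pseudocount, limit what can be read for the dim members.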

Other observations

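Where a tested member had several probe sets, these did not always agree. The level filter was applied to a gene's brightest set, so the counts below include dim sets, such as a Usp12 set at 0.303 to 4.59. The direction of such dim sets carries little information. How often probe sets disagreed over all genes was not examined. In a fit over all probe sets of tested genes, 29 members had several (79 probe sets), the direction differed between probe sets of a gene for 15 members in wake hearts and 10 over both times, and the call differed for 6 members in each of these comparisons. The widest disagreement was in Ube2h, the E2 of the CTLH ligase, chosen here after its values were seen. Its dimmer probe set had signals of 5.91, 15.3 and 12.6 in wake MI hearts, against 32.3, 40.2 and 48.4 in wake sham hearts, and of 14.1, 26.3 and 22.2 in sleep MI hearts, against 44.7, 38.9 and 25.5 in sleep sham hearts. The wake groups did not overlap and the sleep groups overlapped at 1 array. The change was -1.05 in wake hearts (adjusted p = 0.00352), -0.50 in sleep hearts (adjusted p = 0.237) and -0.78 over both times (adjusted p = 0.00196). On the brighter probe set the change was 0.23 in wake hearts (adjusted p = 0.286 in that fit). Likewise a dimmer probe set of Ube2f fell by 0.61 on the log2 scale in wake hearts (adjusted p = 0.0225) and one of Usp1, which acts on DNA repair proteins, fell by 0.43 (adjusted p = 0.0433), while the brightest sets of both genes changed by -0.04 and -0.01. Which transcript each probe set reads was not examined here.

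The 9 members below the level filter had mean signals of 1.59 to 12.5 over the 12 arrays. They include Usp9y, the copy of Usp9x on the Y chromosome, Usp26 and Usp29, genes best known from the testis and from imprinting, and Usp22, a subunit of the SAGA complex, whose probe set read between 2.6 and 13.3. Signals at this level carry no order between groups, and whether these genes are expressed in these hearts was not examined here.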
